A study of Homo sapiens with 8 samples.

Results

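The regions described here are the stretches of accessible chromatin that were listed in both DMSO-treated control samples of the lung cancer cell line HCC44 and in neither DMSO sample of a second lung cancer line, H1975. Overlapping peaks (by at least 1 bp) of all 8 peak lists on chromosomes 1 to 22 and X were merged into 69078 regions, and 13148 of them were selected on that presence and absence. They were 29.1% of the 45105 regions that had a peak in both HCC44 DMSO lists. The presence of a peak in the 4 DMSO lists chose them, so their presence there is a description and is not tested. The questions were what became of these regions in the samples treated with ACBI1, which the choice did not use, and which genes they surround.

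ATAC-seq was used, an assay whose transposase cuts open DNA and leaves sequencing adapters there. Cells of HCC44 and H1975, both human lung adenocarcinoma lines labelled wild type, received DMSO, the solvent, or ACBI1 for 96 h at a dose given as in the labels, 1 mM, whose unit could not be checked. Each of the 4 groups (HCC44 DMSO, HCC44 ACBI1, H1975 DMSO and H1975 ACBI1) had 2 replicates. Nothing in the labels says whether replicates were separate cultures, so the spread between them may be technical.

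ACBI1 is a degrader that removes SMARCA2 and SMARCA4, the motor subunits of the SWI/SNF chromatin remodelling complexes, together with PBRM1, a subunit of one form of these complexes. SWI/SNF complexes use ATP to slide or evict nucleosomes and are known above all for keeping enhancers open, where transcription factors such as AP-1 recruit them. Promoters rich in CG dinucleotides are in general less dependent on remodelling. Regions that are accessible in one cell line and not in another are mostly enhancers, which carry much of the difference between cell states.

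The lists are the authors' peaks and hold no reads. A region missing from a list had no peak that passed the authors' limit, which is not the same as closed chromatin, and the sequencing depth was unknown. The HCC44 DMSO lists held 50323 and 49921 peaks, the HCC44 ACBI1 lists 26295 and 24847, the H1975 DMSO lists 43504 and 41003, and the H1975 ACBI1 lists 27659 and 22115. Every list was therefore shorter after ACBI1, whichever regions are looked at. Fold enrichment and −log10 q were read from the columns that the broad peak format assigns to them, since the lists have no header. A fold enrichment below is the authors' value for a peak over its background, and describes that peak within its own list. Of 9 epithelial marker genes, all had a peak counted at the gene in every H1975 list and 6 to 7 in the HCC44 lists. GRHL2 and ESRP1 had none counted in HCC44 with DMSO. That count is narrow and does not mean closed chromatin around them. With flanks of 50 kb included, the HCC44 DMSO samples had 5 and 7 peaks for GRHL2 and 4 and 3 for ESRP1. Lung markers had a peak in 4 to 6 of 7 cases and mesenchymal markers in 4 of 7 in every list. Of 6 blood markers 2 to 4 had a peak, among them CD14 and SPI1 in all 8 lists and not PTPRC. Of 4 endothelial markers 0 to 1 had one (not PECAM1 or CDH5), and of 5 neuroendocrine markers 0 to 1 (not NEUROD1).

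Most HCC44-specific regions lay away from gene boundaries, and the few at promoters differed in sequence between regions that stayed and regions that were lost. To show that difference, 4 promoters from regions kept in both HCC44 ACBI1 lists and 4 from regions lost from both are printed. They are those of highest mean −log10 q (the authors' significance of a peak) in HCC44 DMSO for each fate. Each line is the 250 bases before the start site from RefSeq (GRCh38.p14), 5′ to 3′ on the gene's strand, with every CG dinucleotide in capitals. The kept ones are SMOC1 (chr14:69879166-69879415, plus strand), FRMD3 (chr9:83538402-83538651, minus strand), NUDT19 (chr19:32691571-32691820, plus strand) and CHST2 (chr3:143119521-143119770, plus strand).
SMOC1: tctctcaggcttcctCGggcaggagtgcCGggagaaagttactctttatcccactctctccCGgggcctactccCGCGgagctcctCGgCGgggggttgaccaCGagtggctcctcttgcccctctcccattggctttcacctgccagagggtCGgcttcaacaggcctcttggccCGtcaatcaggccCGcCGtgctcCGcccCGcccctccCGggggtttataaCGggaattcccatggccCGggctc
FRMD3: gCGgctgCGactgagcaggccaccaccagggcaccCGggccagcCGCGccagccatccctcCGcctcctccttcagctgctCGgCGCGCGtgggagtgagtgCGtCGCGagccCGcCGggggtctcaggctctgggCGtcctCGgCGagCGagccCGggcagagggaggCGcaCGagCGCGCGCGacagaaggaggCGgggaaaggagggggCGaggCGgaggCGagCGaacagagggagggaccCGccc
NUDT19: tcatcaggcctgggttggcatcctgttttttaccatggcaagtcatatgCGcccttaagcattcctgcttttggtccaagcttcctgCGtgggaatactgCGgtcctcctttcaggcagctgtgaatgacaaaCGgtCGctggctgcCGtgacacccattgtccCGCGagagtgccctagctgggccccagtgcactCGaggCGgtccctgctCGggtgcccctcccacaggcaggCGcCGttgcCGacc
CHST2: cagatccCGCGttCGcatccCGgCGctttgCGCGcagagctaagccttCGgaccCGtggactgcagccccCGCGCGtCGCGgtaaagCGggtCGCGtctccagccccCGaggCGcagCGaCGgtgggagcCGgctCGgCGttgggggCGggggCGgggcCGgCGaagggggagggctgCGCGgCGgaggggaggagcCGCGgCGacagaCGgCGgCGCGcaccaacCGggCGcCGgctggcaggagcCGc

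The lost ones are MICAL2 (chr11:12138140-12138389), INSL4 (chr9:5231169-5231418), GBP6 (chr1:89363809-89364058) and C15orf62 (chr15:40769730-40769979), all on the plus strand.
MICAL2: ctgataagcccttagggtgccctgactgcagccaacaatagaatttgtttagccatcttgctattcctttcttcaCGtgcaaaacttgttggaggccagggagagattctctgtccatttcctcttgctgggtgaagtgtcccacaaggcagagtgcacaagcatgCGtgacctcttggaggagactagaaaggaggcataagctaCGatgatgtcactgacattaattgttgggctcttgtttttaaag
INSL4: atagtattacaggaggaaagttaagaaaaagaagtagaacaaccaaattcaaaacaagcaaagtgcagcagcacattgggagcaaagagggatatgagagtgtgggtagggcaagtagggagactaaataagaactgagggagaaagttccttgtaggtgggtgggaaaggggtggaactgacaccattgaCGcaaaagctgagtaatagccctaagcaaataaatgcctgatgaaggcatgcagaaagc
GBP6: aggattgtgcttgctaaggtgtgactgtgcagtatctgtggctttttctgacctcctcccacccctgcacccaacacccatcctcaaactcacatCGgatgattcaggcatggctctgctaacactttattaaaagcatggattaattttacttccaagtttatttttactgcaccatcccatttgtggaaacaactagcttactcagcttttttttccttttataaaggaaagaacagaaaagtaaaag
C15orf62: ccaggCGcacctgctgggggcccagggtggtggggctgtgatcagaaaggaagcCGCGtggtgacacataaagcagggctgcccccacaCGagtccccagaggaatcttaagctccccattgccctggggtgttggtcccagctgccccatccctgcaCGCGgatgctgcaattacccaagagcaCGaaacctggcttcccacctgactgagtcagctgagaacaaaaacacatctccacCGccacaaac

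The kept promoters show 14 to 42 CG dinucleotides in these 250 bases and the lost ones 1 to 8. SMOC1 encodes a secreted calcium-binding matrix protein, and its promoter peak had a fold enrichment of 5.86 and 5.31 in HCC44 DMSO, then 4.93 and 4.36 after ACBI1. CHST2 encodes a sulfotransferase that modifies glycans, and its peak had 5.87 and 5.20 with DMSO, then 4.53 and 4.12 after ACBI1. FRMD3 had 6.20 and 5.31, then 6.96 and 5.79, and NUDT19 had 5.28 and 5.01, then 5.08 and 5.02. SMOC1 and CHST2 were lower in both ACBI1 samples than in either DMSO sample. The median over all peaks of a list was lower too, at 4.97 and 4.49 with ACBI1 against 5.66 and 5.34 with DMSO in HCC44. A lower value after ACBI1, here or below, is therefore not particular to a region. GBP6 encodes an interferon-inducible GTPase, and its promoter region had 6.47 and 6 with DMSO and no peak in either ACBI1 list. INSL4, an insulin-like hormone gene of the placenta, had 7.08 and 6.01 with DMSO and none with ACBI1. MICAL2, which encodes an actin-oxidizing enzyme, had 4.81 and 4.59, then none. The printed GBP6 and C15orf62 windows each hold 1 match to the AP-1 motif TGANTCA, read on both strands.

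After ACBI1, HCC44 lost most of the regions that set it apart from H1975. Of the 13148 regions, 3386 (25.8%) still had a peak in HCC44 ACBI1 replicate 1 and 3141 (23.9%) in replicate 2. Counted over both samples, 9391 (71.4%) were lost (in neither list), 2770 (21.1%) were kept (in both), and 987 (7.51%) were split (in 1 of the 2). Over all regions of both HCC44 DMSO lists the background was 49.2% lost and 44.6% kept. Among the 29080 shared regions, which had a peak in all 4 DMSO lists, 37.7% were lost and 56.8% kept, so the loss was 33.8 percentage points higher in the HCC44-specific regions. Both HCC44 ACBI1 samples showed this order, with 74.2% and 76.1% of HCC44-specific regions missing against 39.5% and 41.4% of shared regions. The 2877 regions just outside the choice, with a peak in exactly 1 H1975 DMSO list, lay between, with 64.6% lost and 28.5% kept. Stricter lists gave fewer regions and moved the shares. There were 8254 regions, 81.2% lost and 9.81% kept, with at least 5-fold enrichment. There were 8666, 80.1% lost and 13.6% kept, with a −log10 q of at least 20, and 4871, 64.8% lost and 29.7% kept, with lists of equal length. The gap to shared regions was 27.4, 37.1 and 41.4 percentage points under these settings.

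Disagreement between DMSO replicates was much smaller. Of regions in HCC44 DMSO replicate 1 with no H1975 DMSO peak, 20% were missing from replicate 2, while 76.4% and 78.3% were missing from the ACBI1 samples. Starting from DMSO replicate 2 gave 21.8% missing from replicate 1 and 76.3% and 77.6% missing with ACBI1. The same comparison for regions with a peak in both H1975 DMSO lists gave 4.31% and 2.43% between DMSO replicates and 40.5% to 43.4% with ACBI1. Line-specific regions were thus less repeatable than shared ones in DMSO-treated cells as well.

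H1975 also lost most of the regions that were specific to it. Of 6828 regions listed in both H1975 DMSO samples and in neither HCC44 DMSO sample, 66.1% and 74.8% were missing from the H1975 ACBI1 replicates, a mean of 70.4% ± 6.10 (SD, n = 2). The HCC44-specific regions in HCC44 gave 75.2% ± 1.32 (SD, n = 2). The difference of 4.74 percentage points was below the spread between the H1975 replicates, with p = 0.667 in a two-sided exact permutation test over the samples, whose smallest possible p is 0.333. It is not a stable value, since it was 0.507 without H1975 ACBI1 replicate 1, 9.05 without replicate 2, 29.1 when only peaks of at least 5-fold enrichment were used and 24.1 with lists of equal length.

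HCC44-specific regions seldom appeared in H1975 after treatment. A peak was listed at 896 of them (6.81%) in H1975 ACBI1 replicate 1 and at 257 (1.95%) in replicate 2, so the H1975 replicates differed more than 3-fold. In HCC44 ACBI1 24.8% ± 1.32 were listed against 4.38% ± 3.44 in H1975 ACBI1 (SD, n = 2 each), a difference of 20.4 percentage points. This direction follows from the choice of regions with HCC44 and without H1975 peaks, so the difference is a description and has no test. The difference fell to 13.1 with a −log10 q of at least 20 and to 10.7 with at least 5-fold enrichment.

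A small set, 219 regions (1.67%), had a peak in both H1975 ACBI1 lists although neither H1975 DMSO list had one. The share over all 23908 regions without an H1975 DMSO peak was 2.66%, but these include regions that exist only through a peak in an H1975 ACBI1 list, so the 2 shares are not compared. Appearance in H1975 went with staying in HCC44. Among kept regions 200 of 2770 (7.22%) were listed in both H1975 ACBI1 samples and 593 (21.4%) in 1 of them, and among lost regions 2 of 9391 were listed in both and 37 (0.394%) in 1. Of the 219 regions, 32 (14.6%) lay at a gene boundary.

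**Figure D1:**
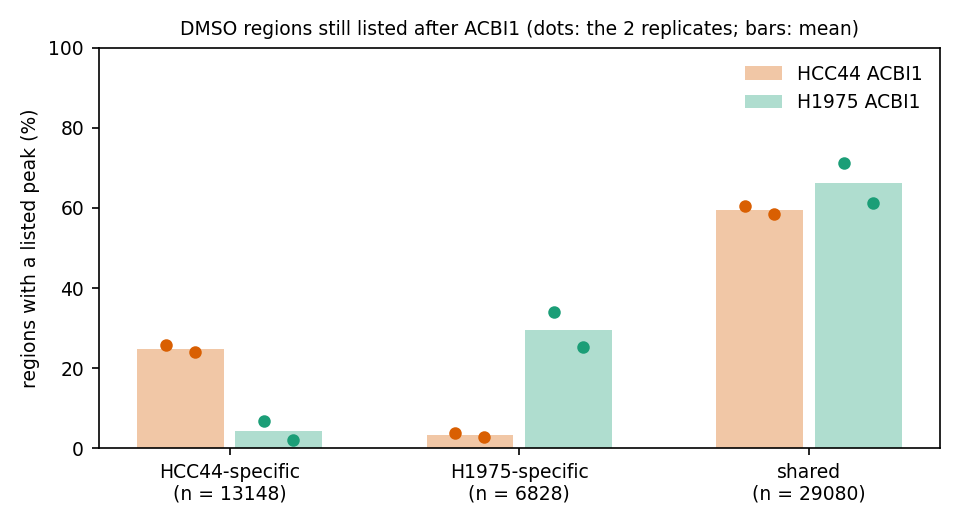
Share of DMSO regions with a listed peak in each ACBI1 sample (percent, vertical axis), for HCC44-specific, H1975-specific and shared regions. Dots are the 2 replicates of a line and bars their mean; HCC44-specific regions were listed at 25.8% and 23.9% in HCC44 and at 6.81% and 1.95% in H1975.

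HCC44-specific regions were weaker, narrower and more distal than shared ones. Their median −log10 q in HCC44 DMSO was 22.3 against 40.1 for shared regions, the median peak width was 513.5 against 856.5 bases, and the median fold enrichment was close, at 5.62 against 5.48. A gene boundary (at most 1 kb from where a protein-coding gene starts or ends) was reached by 1021 of them (7.77%), by 25.4% of all HCC44 DMSO regions and by 35% of shared regions. With windows of 5 kb the share was 17.6%, and with all annotated genes 15.4%. The median distance to a start site was 46.4 kb against 16.8 kb, over regions outside chromosome 8. The nearest H1975 DMSO peak lay at a median of 16.1 kb, and 67 regions had one within 1 kb, while 162 had none within 500 kb.

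Position went with fate. At gene boundaries 43.8% of the HCC44-specific regions were lost, against 4.67% of the shared regions there, and away from them 73.8% against 55.4%. Boundaries include gene ends, and the 2 classes differed in that mix. Over 1 kb from any listed start site lay 589 of the 1021 HCC44-specific boundary regions and 2037 of the 10179 shared ones. Regions on chromosome 8 could not enter these 2 counts. The part of this mix in the boundary gap was not tested. Away from boundaries the gap was therefore 18.3 percentage points, well below the gap over all regions. Lost regions were the most distal, with 4.76% at a boundary and a median of 52.9 kb to a start site, and kept regions had 16.3% and 31.2 kb. The median −log10 q was 22.4 in lost and 22.6 in kept regions.

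The 45105 HCC44 DMSO regions were put in quintiles by −log10 q rank and, chosen after seeing the data, by peak width. From the weakest to the strongest quintile by −log10 q, the lost share of HCC44-specific regions was 71.0%, 73.2%, 73.8%, 69.9% and 52.5%. It stayed nearly level over the first 4 quintiles and fell in the strongest, which held 417 of these regions and kept 39.1% of them. Shared regions went from 57.8% to 16.8% over the same quintiles, falling at each step. Their part at gene boundaries rose meanwhile, from 576 of 2576 regions to 4497 of 8486. Away from boundaries the shared regions fell little at first, with 67.1%, 63.6%, 63.2%, 54.1% and 35.1% lost. At boundaries the HCC44-specific regions also fell, from 52.4% to 9.76%. By peak width, HCC44-specific regions went from 75% lost in the narrowest quintile to 48.7% in the widest, and shared regions from 76.9% to 10.8%. In the narrowest quintile the order of the 2 classes was thus turned, by 1.95 percentage points, while in the 2 widest quintiles the lost share was 63.4% against 23% and 48.7% against 10.8%. The part of width and strength in the gap was not tested beyond these quintiles.

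**Figure D2:**
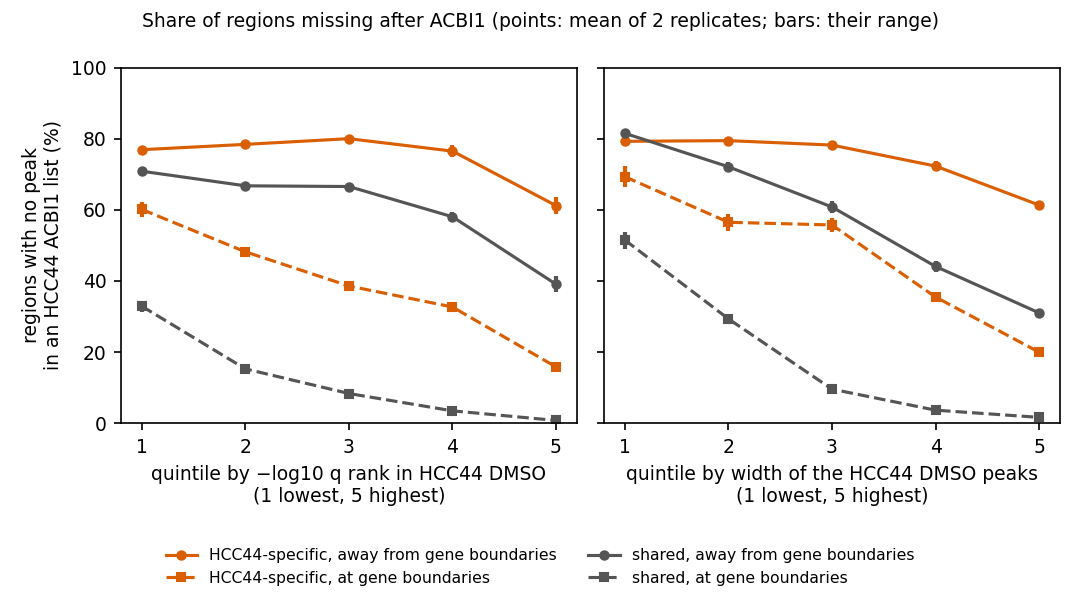
Share of regions with no peak in an HCC44 ACBI1 list (percent, vertical axis) by quintiles of −log10 q rank (left) and of peak width (right) in HCC44 DMSO, for HCC44-specific and shared regions at and away from gene boundaries. Points are means of the 2 replicates and vertical bars their range. The distal HCC44-specific line stays near its starting level through the first 3 quintiles in both panels. By −log10 q the distal shared line also falls little over those 3 quintiles. The other lines, among them those of HCC44-specific regions at boundaries, fall from the lowest to the highest quintile.

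The promoters printed above belong to a wider pattern. Of 22131 promoter windows in the RefSeq table (250 bases before to 50 after a start site, none on chromosome 8), 269 lay wholly within an HCC44-specific region, of which 158 were in kept, 32 in split and 79 in lost regions. Merging with ACBI1 peaks can widen a kept region. The median region width was 774 bases in kept and 559 in lost regions, against 575 and 500 for their HCC44 DMSO peaks. Wider regions hold a whole window more easily, so the numbers and shares of kept and lost windows depend on this. Kept windows held a median of 26.5 CG dinucleotides, near the 29.0 of shared regions, and lost windows 6. All promoters in the table had 21.0. By CG number, 63.7% of the 80 windows with under 10 were lost, 18.8% of the 48 with 10 to 19 and 13.5% of the 141 with 20 or more. Shared promoters fell in the same order from a lower start, with 18.8%, 2.09% and 0.668% lost. At every CG level the HCC44-specific promoters were thus lost more often than shared ones.

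In all, 11 short motifs were searched, and their shares are given with no test. The AP-1 motif TGANTCA occurred in 20.3% of lost and 3.80% of kept windows of HCC44-specific regions, in 23.8% of lost and 4.14% of kept shared windows, and in 6.15% of all windows. The SP and KLF motif GGGCGG, read on both strands like the others, occurred in 27.8% of lost and 67.7% of kept windows against 56.3% of all. The RUNX motif TGTGGT was in 19.0% of lost and 5.70% of kept windows against 11.3% of all. For TEAD (GGAATG) the shares were 13.9%, 8.23% and 12.2%, and for the CCAAT box 24.1%, 25.3% and 34.6%, in lost, kept and all windows. The E-box of ZEB and SNAI, CACCTG, was in 16.5% of lost, 17.7% of kept and 20% of all windows. For NRF2 and MAF, TGACNNNGC, the shares were 7.59%, 8.86% and 13.8% in the same order. The motif of GATA factors, spelled AGATAA, had 6.33%, 5.70% and 7.88%, and ETS, CCGGAAG, had 7.59%, 5.70% and 12.8%. FOX, TGTTTAC, had 6.33%, 1.90% and 2.85%, and CRE, TGACGTCA, had 2.53%, 1.90% and 2.26%. SP and KLF, ETS and CRE matches themselves contain a CG, so those motifs and the CG count are not separate measures. The median share of G and C bases was 54.7% in lost, 67.8% in kept and 62.3% in all windows. No motif share was adjusted for it. A match is a description of these letters and not of binding.

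**Figure D3:**
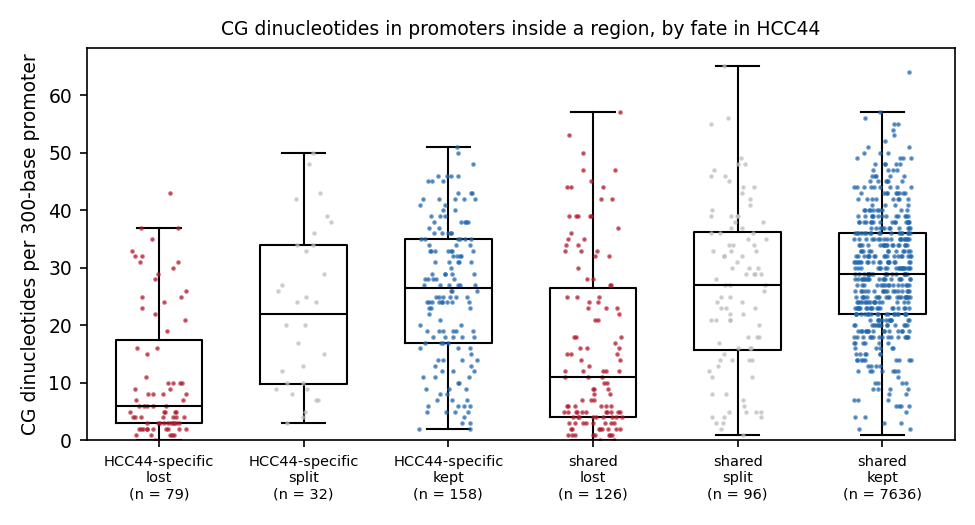
Number of CG dinucleotides per 300-base promoter window (vertical axis) for promoters inside HCC44-specific and shared regions, by fate in HCC44 ACBI1. Boxes give the quartiles with the median as a line, whiskers reach the last value within 1.5 box lengths, and dots are promoters (at most 500 drawn per group); medians were 6 for lost and 26.5 for kept HCC44-specific regions.

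Regions near microRNA genes had both fates. Of 1558 hairpins in the RefSeq table, 39 lay within 1 kb of an HCC44-specific region, involving 38 regions, of which 16 were kept, 5 split and 17 lost. For comparison, 21.1% of all HCC44-specific regions were kept and 71.4% lost, and of those at gene boundaries 44.2% were kept and 43.8% lost. Regions at the miRNAs of the HOX clusters and at MIR34B and MIR34C were all kept. HOX clusters hold the genes of body-axis patterning, and miR-34 miRNAs are targets of p53. The mature sequences in the table are shown for these loci with the seed (bases 2 to 8) in capitals, because the seed decides which mRNAs a miRNA can pair with.
hsa-miR-196b-5p: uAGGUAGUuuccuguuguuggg
hsa-miR-196b-3p: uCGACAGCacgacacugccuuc
hsa-miR-10b-3p: aCAGAUUCgauucuaggggaau
hsa-miR-615-5p: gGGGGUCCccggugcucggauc
hsa-miR-615-3p: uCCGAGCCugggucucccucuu
hsa-miR-34b-5p: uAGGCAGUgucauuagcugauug
hsa-miR-34b-3p: cAAUCACUaacuccacugccau
hsa-miR-34c-3p: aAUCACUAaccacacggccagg

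No seed is shared among the sequences printed. The region at MIR196B in the HOXA cluster (chr7:27169305-27170218) had fold enrichments of 3.42 and 3.08 with DMSO and 3.19 and 3.06 with ACBI1 in HCC44. Beside MIR10B in the HOXD cluster (chr2:176151291-176152623) they were 5.97 and 5.48, then 4.84 and 4.72. At MIR615 in the HOXC cluster (chr12:54032468-54034125) they were 4.11 and 3.92, then 3.44 and 2.95. The region at MIR34B and beside MIR34C (chr11:111512361-111513014) had 6.95 and 6.10, then 5.30 and 4.92. All were listed in all 4 HCC44 samples, and those at MIR10B, MIR615 and MIR34B were also listed in 1 of the 2 H1975 ACBI1 samples. Across all 39 hairpins, 1 seed (GACUGAC) belonged to different miRNAs, hsa-miR-6855-3p beside a lost region and hsa-miR-4513 beside a kept one.

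Genes were linked to regions by a window that reached 50 kb beyond the gene on each side. Of 19970 protein-coding genes, 53.2% had at least 1 HCC44-specific region there and 12.2% had at least 3, with a median of 1. With the gene body only 21.2% of genes had a region, and with 10 kb on each side 30.3%; it was 36.4% for peaks of at least 5-fold enrichment and 27.2% with lists of equal length. Long genes have wider windows: the median gene length was 24.2 kb over all genes and 60.8 kb over the 2432 genes with at least 3 regions. Neighbouring genes share regions. A region near a gene was not linked to the gene's activity, which was not measured here.

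The genes with the most HCC44-specific regions were mainly long. PDE10A and MACROD2 had 17 each, CAMTA1 and PDE4D 16, GSE1 15, and RPS6KA2 and RANBP2 13. PDE10A, PDE4D and PDE4B, the last with 12, encode phosphodiesterases that break down cyclic nucleotides. H1975 had no line-specific region of its own within 50 kb of any of these 3 phosphodiesterase genes, as was so for 312 of the 558 genes with at least 5 HCC44-specific regions. Other genes among the leading 20 were PTPRM, a receptor tyrosine phosphatase (12), TRIO, a guanine nucleotide exchange factor (11), RPS6KA2, a kinase downstream of ERK, and CD96, an immunoglobulin-family receptor of lymphocytes (11). RANBP2 spans 1123 kb in the table used, so its window covers other genes as well.

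At PDE10A (chr6:165327289-165988052), the HCC44 DMSO samples had 25 and 25 peaks in the window, the HCC44 ACBI1 samples 14 and 10, the H1975 DMSO samples 4 and 3, and the H1975 ACBI1 samples 1 and 1. Of its 17 HCC44-specific regions, 9 were lost, 2 split and 6 kept. The region at the gene's upper end (chr6:165987087-165989017) was kept, with fold enrichments of 3.79 and 3.60 with DMSO and 3.90 and 3.57 with ACBI1. A kept region at an inner start site (chr6:165662776-165664649) had 3.04 and 2.76, then 3.21 and 3.48. Regions lost inside the gene, such as chr6:165968130-165968664 with 6.77 and 7.19 in DMSO, had higher fold enrichments in DMSO than these kept regions.

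PDE4D (chr5:58969038-60522128) lost more, with 14 of 16 regions lost, 1 split and 1 kept. Peak numbers in its window were 34 and 33 with DMSO and 10 and 11 with ACBI1 in HCC44, and 17 and 15, then 7 and 3, in H1975. Its strongest lost region (chr5:60196473-60196756, intragenic) had a fold enrichment of 9.74 and 9.24 with DMSO. MACROD2 likewise had 14 of 17 lost. The lost share at these 2 genes was above the 71.4% of all HCC44-specific regions, and at PDE10A, CAMTA1 (8 of 16) and GSE1 (8 of 15) it was below.

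**Figure D4:**
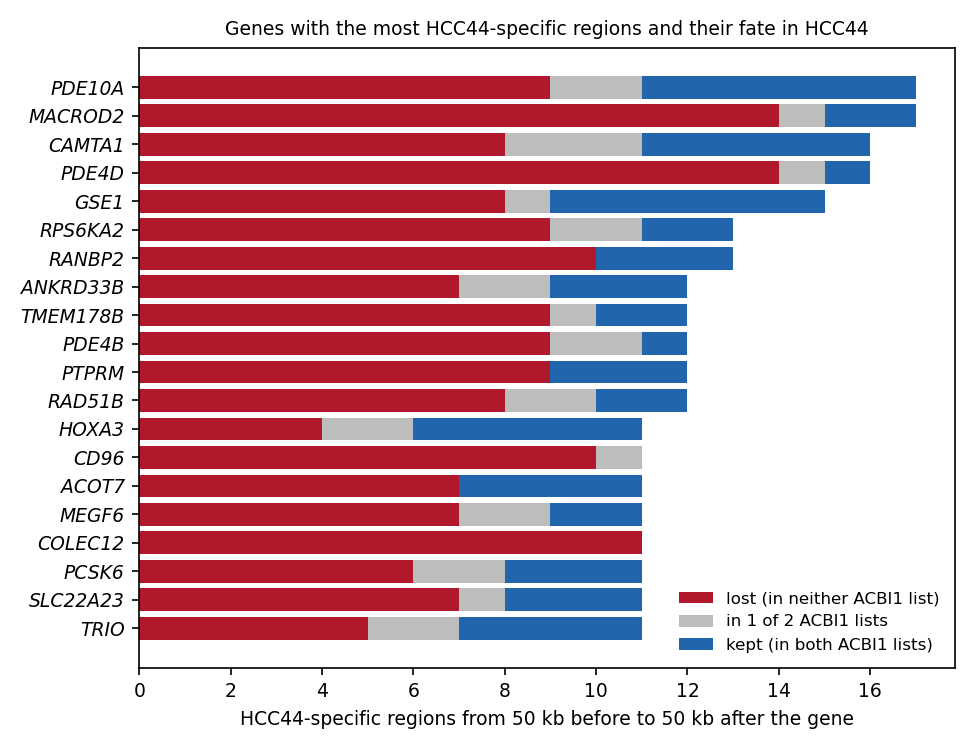
Number of HCC44-specific regions within 50 kb (horizontal axis) for the 20 genes with the most, split by fate in HCC44 ACBI1. COLEC12 lost all 11 and CD96 10 of 11, while HOXA3 and TRIO lost 4 and 5 of 11.

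Around some genes every HCC44-specific region was lost. Of 558 genes with at least 5, 86 lost every region, and COLEC12, ARHGEF28, RPTOR, FOXP1 and LPP had the most. Over all HCC44-specific regions 71.4% were lost, and neighbouring genes share regions, so the 86 are not separate loci. Whether 86 is more than that share alone would give was not tested. COLEC12 (chr18:316737-500701), a scavenger receptor gene, had 13 and 13 peaks in its window in HCC44 DMSO, 3 and 3 in HCC44 ACBI1 and 1 in each H1975 sample. All 11 HCC44-specific regions were lost, among them 4 inside the gene with a fold enrichment above 6 in both DMSO samples, for example chr18:433851-434718 with 6.84 and 6.47 in DMSO, and the 1 near its start (chr18:499473-499749), with 4.61 and 4.39. FOXP1, a forkhead repressor, LPP, a focal adhesion protein, ARHGEF28, a guanine nucleotide exchange factor, and RPTOR, the scaffold of the mTORC1 kinase complex, each lost 9 of 9. The windows were not empty in HCC44 ACBI1, where FOXP1 had 5 and 5 peaks and RPTOR 12 and 10.

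The reverse was rare: CSHL1 was the only gene with at least 5 regions that kept all of them, and 11 genes with at least 4 did. Over all HCC44-specific regions 21.1% were kept. CSHL1 (chr17:63909608-63911258) lies in the growth hormone and placental lactogen cluster, whose genes are active in pituitary and placenta. The region at GH2 (chr17:63881224-63882833) had fold enrichments of 7.13 and 6.88 with DMSO and 5.41 and 4.88 with ACBI1 in HCC44. At GH1 (chr17:63918440-63919655) the values were 4.91 and 5.16, then 4.36 and 4.46. The region beside CSH2 (chr17:63866180-63866904) had 4.90 and 5.59, then 6.27 and 5.82. In H1975, the window had no peak in either DMSO sample, 5 peaks in ACBI1 replicate 1 and 1 in replicate 2. The regions of this locus were therefore HCC44-specific with DMSO and were listed in 1 or both H1975 samples with ACBI1, and only the one beside CSH2 was in both.

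HOXA3 (chr7:27107010-27152583), in the HOXA cluster, had 11 HCC44-specific regions, of which 4 were lost, 2 split and 5 kept. Kept regions lay inside HOXA3, at HOXA5, at the HOXA10-HOXA9 transcript beside MIR196B, and at HOXA11. The one at HOXA11 (chr7:27184020-27185205) had fold enrichments of 3.67 and 3.37 with DMSO, then 2.98 and 2.66 with ACBI1. Of the 4 lost, 3 lay outside any protein-coding gene, for example chr7:27080731-27081276 with 4.89 and 4.58 in DMSO.

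Peaks of very high significance formed another group, named after their values were seen. Among the 14 HCC44-specific regions of highest −log10 q, 5 lay on chromosome 8 around POU5F1B and MYC, a driver of cell growth. Of these, 3 were lost, for example chr8:127507159-127508196 with 4.71 and 4.61-fold enrichment in DMSO, and 2 were kept. The 3 lost ones had fold enrichments below the median of 5.62 over HCC44-specific regions, down to 3.59 and 3.36, beside their high −log10 q. The kept region nearest to MYC, described below, was under that median as well. Why fold enrichment and −log10 q part there was not tested. The 14 also hold regions on chromosome 5, inside ANKH and nearest to OTULINL and CDH18, all lost. At the kept region chr8:127311166-127312101, 101346 bases from POU5F1B, the fold enrichment was 6.10 and 4.88 with DMSO and 12.1 and 9.41 with ACBI1. At chr8:127930291-127932326, 187340 bases from MYC, it was 3.88 and 2.96, then 2.59 and 2.09. By fold enrichment rank, the strongest lost region lay in LGALS9B (chr17:20450885-20451201; 11.6 and 11.3) and the strongest kept one in SNX29 (chr16:12075779-12076353; 12.8 and 11.5 with DMSO, 10.6 and 9.34 with ACBI1).

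The gene lists group members by role, and were chosen with results of these data known. Each is described by how many genes had regions within 50 kb, to be read against the 53.2% and 12.2% of all protein-coding genes. The lists were not matched to all genes by length, and a region can count for several neighbouring genes of a list. A list of 20 transcription factors, most of them of the RUNX, ETS and STAT families, had 19 genes (95%) with at least 1 region, and 7 (35%) had at least 3. Those 7 genes were 24.5 kb (STAT5A) to 223 kb (RUNX2) long, against a median of 24.2 kb over all genes. The windows of the neighbours STAT3 and STAT5A overlap. It is a selection and holds other factors too, such as NFATC2 and CEBPB, the latter with no region. STAT2 and ELF3, members of these families placed in other lists, had none either. The list's median was 2 regions per gene, and 36 of its 49 regions (73.5%) were lost, near the 71.4% of all HCC44-specific regions.

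RUNX3, a factor of epithelial and T cell differentiation, had 8 regions, of which 4 were lost, 1 split and 3 kept. Its window (gene at chr1:24899511-24965138) had 13 and 12 peaks in HCC44 DMSO, 6 and 4 in HCC44 ACBI1, 4 and 2 in H1975 DMSO and 1 and 0 in H1975 ACBI1. NFATC2, a calcium-regulated factor, lost 7 of 7, the strongest at chr20:51579007-51579512 upstream of the gene, with a −log10 q of 47.5 and 50 in DMSO. ETS1 lost 4 of 4 and RUNX2 3 of 3, while FLI1 had 6 regions with 3 lost, 2 split and 1 kept. At FLI1, H1975 DMSO had 0 and 1 peaks in the window against 7 and 7 in HCC44 DMSO.

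The YAP, TAZ and TEAD list covers the transcriptional output of Hippo signalling, in which the coactivators YAP1 and TAZ (WWTR1) bind TEAD factors. Of its 16 genes, 13 (81.2%) had at least 1 region and 7 (43.8%) at least 3, the highest share of any list. WWTR1 had 6, of which 5 were lost, and the kept one (chr3:149512372-149513133) had 4.16 and 4.15-fold enrichment with DMSO and 4.58 and 3.68 with ACBI1. TEAD1 lost 3 of 3. The target CCN1, a matricellular protein, had 4, with 2 kept, among them the region at the gene (chr1:85582607-85584737; 2.20 and 2.05, then 2 and 1.89). The target ANKRD1 kept the region nearest to it and lost the other 2.

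The AP-1 list, which holds JUN, FOS and BATF genes among others, had regions at 11 of 14 genes (78.6%). Of its 21 regions 10 (47.6%) were lost and 7 kept, against 71.4% and 21.1% over all HCC44-specific regions. The neuroendocrine and housekeeping lists had lower lost shares still, 44.4% of 9 and 40.0% of 10 regions. Shared regions around AP-1 genes were lost in 17.7% of cases, against 37.7% of all shared regions. FOS kept 3 of 4, while BATF lost 2 of 3 and BATF3 lost 3 of 3. In signalling, the TGF-beta and BMP list had 17 of 22 genes (77.3%) with a region, and the receptor TGFBR2 lost 4 of 4. Of the receptor kinase and RAS list 13 of 28 (46.4%) had a region, fewer than the 53.2% of all genes, but 6 (21.4%) had at least 3. EGFR lost 3 of 4, NRG1, an ERBB ligand gene, lost 5 of 6 with 1 split, and DUSP6, a phosphatase that acts on ERK, lost 3 of 4. In the WNT and Notch list 16 of 26 (61.5%) had a region. NOTCH2 kept 4 of 4, with fold enrichments between 4.71 and 6.83 in DMSO and between 4.41 and 6.81 with ACBI1, and its ligand JAG1 lost 3 of 3.

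Matrix and adhesion genes formed 2 lists. Integrins and laminins had regions at 15 of 20 genes (75%), and collagens and proteases at 15 of 22 (68.2%), with 27.3% of the latter having at least 3. LAMA3, a chain of the laminin that anchors epithelia to the basement membrane, lost 6 of 6. MMP10, a matrix metalloprotease, kept 3 of 3, and MMP7 lost 3 of 3. The region chr11:102746864-102747484 near MMP10 had 8.72 and 8.19 with DMSO, then 10.4 and 8.43 after ACBI1.

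Lineage lists lay on both sides of the background. Epithelial genes had regions at 11 of 22 (50%), lung lineage genes at 13 of 21 (61.9%), squamous genes at 4 of 13 (30.8%), neuroendocrine genes at 5 of 11 (45.5%) and mesenchymal genes at 11 of 24 (45.8%). The 19 regions around mesenchymal genes were lost in 17 cases (89.5%) and kept in none, against 71.4% lost and 21.1% kept over all HCC44-specific regions. Of the 79 shared regions around the same genes 38.0% were lost, against 37.7% of all shared regions. Around SPARC and TGFBI, both secreted matrix proteins, 3 of 3 regions were lost at each. FOXA1, a pioneer factor of lung epithelium, had 4 regions. The one inside the gene (chr14:37591464-37592704; 2.34 and 2.16, then 2.37 and 2.06) was kept, as was one in neighbouring TTC6. The 2 farther ones, with fold enrichments from 5.93 to 7.76 in DMSO, were lost. Gut and liver genes had regions at 14 of 20 (70.0%), among them the trefoil peptide genes TFF1, TFF2 and TFF3, whose windows overlap. Neural and mesoderm genes had regions at 13 of 20 (65%), and SOX5, an HMG-box factor of cartilage and neural development, had 7. Its window had 7 and 8 peaks in HCC44 DMSO, 1 and 1 in HCC44 ACBI1 and 0 in all 4 H1975 samples, and 6 of the 7 regions were lost.

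Among detoxification genes under NRF2, the oxidative stress factor, 13 of 21 (61.9%) had a region. TXNRD1, which reduces thioredoxin, kept 4 of 6, and AKR1C2, an aldo-keto reductase, had 6, with 3 lost and 2 split. Around genes of the STING and interferon list, the innate immune pathway named in the study's title, 14 of 24 genes (58.3%) had a region, near the background. Of its 19 regions 15 were lost (78.9%), against 71.4% over all HCC44-specific regions. IL1B, an inflammatory cytokine gene, lost 4 of 4, with 9 and 9 peaks in its window in HCC44 DMSO and 1 and 0 in HCC44 ACBI1. In H1975 its window went from 8 and 4 peaks with DMSO to 0 and 0 with ACBI1. Of 12 housekeeping genes 8 (66.7%) had a region and 0 had at least 3.

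**Figure D5:**
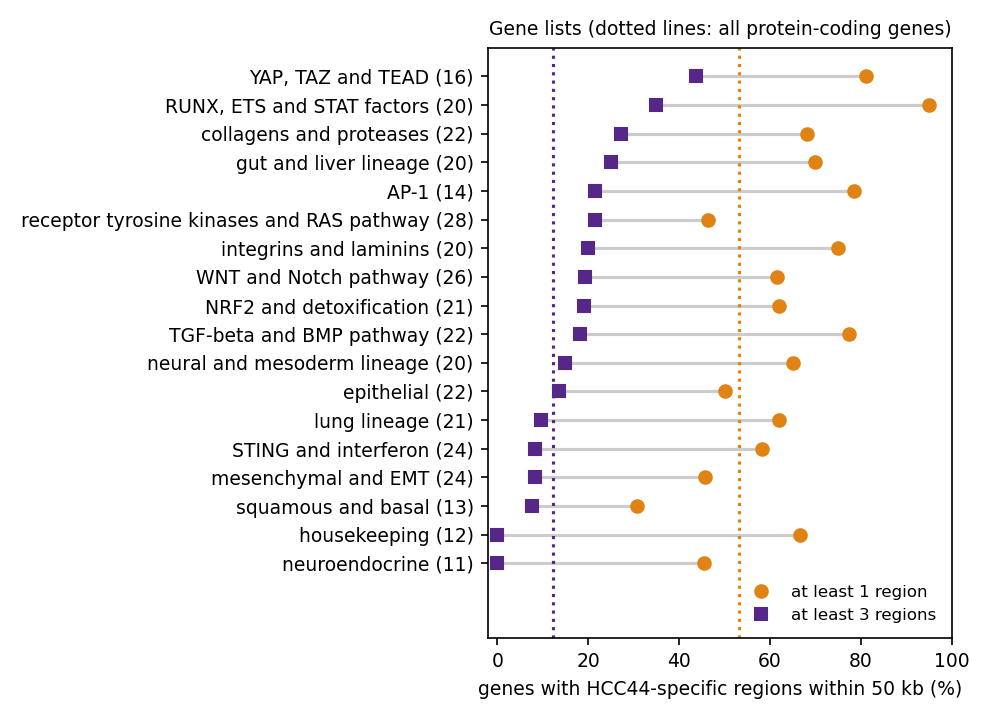
Percent of the genes of each list (number of genes in parentheses) with at least 1 and at least 3 HCC44-specific regions within 50 kb. Dotted lines mark all protein-coding genes, at 53.2% and 12.2%; the YAP, TAZ and TEAD list had 43.8% with at least 3 and the housekeeping and neuroendocrine lists 0.

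HCC44-specific regions were spread unevenly over the genome. As a share of each chromosome's HCC44 DMSO regions they ranged from 16.9% on chromosome 19 to 44.2% on chromosome 13. Chromosome 19 also had the lowest loss among chromosomes, 53.6%, and chromosome 18 the highest, 78.0%. In windows of 10 Mb with at least 50 regions (273 windows), the highest share was 62.7% at 190 to 200 Mb of chromosome 1, where 46 of 52 regions were lost. There the HCC44 DMSO samples had 95 and 96 peaks and the H1975 DMSO samples 43 and 38. Next came 140 to 150 Mb of chromosome 2, with 60.0% and 35 of 39 lost, and the end of chromosome 15 from 100 Mb, with 58.9% and 18 of 33 lost. The lowest share was 8.75%, at 30 to 40 Mb of chromosome 16. On chromosome 19 it was 10.0% at 50 to 60 Mb and 11.1% at 10 to 20 Mb. At 50 to 60 Mb there, the H1975 DMSO samples had 358 and 351 peaks and the HCC44 DMSO samples 143 and 138.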

How the data were processed

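ATAC-seq peak lists of 8 samples were used, with 2 cell lines, 2 treatments and 2 replicates per group. Per the submitters' processing notes, reads were aligned with BWA to hg38, and the peak caller is not given in the sources used here. The deposited broad peak lists have no header, and columns 7 and 9 were taken, as the format assigns them, as the authors' fold enrichment (a ratio over background) and −log10 q. Lists were made per sample, and they hold no reads, so depth is unknown and no count test was possible.

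Peaks on chromosomes 1 to 22 and X were merged (1 bp overlap) and classed by presence in each list. The regions and gene lists were chosen with earlier results of these data known. Genes came from a RefSeq table (GRCh38.p14, 19970 protein-coding genes), which holds no exons, and 15811 genes had a promoter window. Named genes were the 20 with the most regions, the 5 with the most regions all lost or all kept (at least 5), and list genes with at least 3. The loss in the 2 lines was compared by a two-sided exact permutation test with Python 3.11.15, numpy 2.4.6, pandas 2.3.3 and scipy 1.17.1. A second planned comparison of the lines, in regions listed, is given without p because the choice of regions fixes its direction. The merging was tested on simulated lists. Alternatives were minimum peak values, merging distance, overlap, list length, gene windows, leaving out samples and a replicate block. A few genes are not reported here.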

Additional observations from a re-analysis of the deposited data

How the results depend on the processing

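The number of HCC44-specific regions was 8666 with a −log10 q of at least 20, 8254 with at least 5-fold enrichment and 4871 with all lists at the 22115 peaks of the shortest, and 14059 to 16823 when a DMSO replicate was left out. Their lost share was 80.1%, 81.2% and 64.8% under the first 3 settings, 73.1% with 50% cover of a peak, 52.5% in the strongest 20%, 73.8% away from gene boundaries, 75% in the narrowest and 48.7% in the widest 20% (both chosen after seeing the data), and 70.1% to 76.1% without single replicates. Over the planned settings the kept share ranged from 9.81% (at least 5-fold enrichment) to 39.1% (strongest 20%). In the widest 20% it was 41.9%. The gap to shared regions was 37.1, 27.4 and 41.4 percentage points under those first 3 settings, 35.7 in the strongest 20% and 18.3 away from boundaries. It was 37.8 in the widest 20%, 30.4 to 34.8 without single replicates, and -1.95 in the narrowest 20%, a reversal. Over all 8 results, 64 alternatives left no replicate out, of which 28 counted as the same, 35 as moved and this 1 as reversed. Only differences could count as reversed, and the line-against-line differences counted as the same unless they reversed. Gene boundaries were reached by 8.42%, 5.32% and 10.6% under the first 3 settings, 9.30% with 50% cover, 17.6% with 5 kb windows and 15.4% with all annotated genes. Genes with a region were 40.4%, 36.4% and 27.2%, 61.7% with 50% cover, 21.2% with the gene body only and 30.3% with 10 kb flanks. Fewer peaks enter under the stricter settings; otherwise the cause was not tested.

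Without single ACBI1 replicates the line-against-line difference in loss was 0.507 to 9.05 points, and the difference in regions listed 18.0 to 22.9 points. These are given as values, and no test of them was made. With a replicate block, permuting only within numbers, the exact p was 0.5 for the difference in loss (4.74 points), the smallest that 4 arrangements allow. The difference in regions listed (20.4 points with the block as without) has a direction set by the choice of regions, so no p is given. Same-numbered samples did not deviate together region by region (correlations of -0.009 to 0.016 over 69078 regions), but replicate 1 had the longer list in every group. With 2 replicates per group these values cannot decide whether same-numbered samples were handled together. Depth limits every absence reported, since a weaker peak below the authors' limit reads as lost.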
